A study of Mus musculus with 45 samples.

Results

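The diet effect in pancreatic islets of CAST/EiJ mice was taken from the 15 libraries, of 45 in the series, whose title names CAST/EiJ. Of these, 8 came from mice on the 44% fat diet and 7 from mice on the 10% fat diet, and the -F or -M ending of the title gave the sex. The series profiled polyA RNA of islets of Langerhans from 3 inbred strains, CAST/EiJ, C57BL/6J and NZO/HlLtJ, and by its title it asks how strain and diet together set susceptibility to type 2 diabetes. All mice were labelled wild type and entered the diets at 6 weeks of age, and tissue was taken at 15 weeks. The control diet is labelled as 10% fat with added fiber, and the other as 44% fat with added fiber and high in sugar, here called the high-fat diet. The CAST/EiJ groups held 4 females on control diet, 4 females on high-fat diet, 3 males on control diet and 4 males on high-fat diet. Libraries are named below by diet, sex and replicate number, which follows the order of deposit and pairs nothing. The labels do not say whether each library is a separate animal, so every p-value measures the spread between these libraries, part of which may be technical.

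Pancreatic islets are small endocrine organs in which beta cells secrete insulin, alpha cells glucagon, delta cells somatostatin and PP cells pancreatic polypeptide. When a fatty diet raises the demand for insulin, islets of many laboratory strains enlarge, beta cells divide, and genes of fatty acid oxidation are switched on through PPAR nuclear receptors. CAST/EiJ is a wild-derived strain, genetically distant from the classical laboratory strains. The acinar tissue around islets makes digestive enzymes, and some acinar RNA remains in most islet preparations.

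The libraries were deep, with 60703339 to 97484477 counts each, and carried an islet profile. Ins2, which encodes insulin, stood at 52820 to 86060 CPM (counts scaled to library size) in all 15, and Gcg, which encodes glucagon, at 17110 to 43650. Genes of the Y chromosome and Xist matched the labelled sex in every library. Acinar RNA varied most: the 23 acinar genes held between 0.0562% (control male 1) and 35.8% (control female 4) of the counts. The first principal component of the 1000 most variable genes carried 28.0% of their variance, of which the acinar level accounted for 95.2% and diet for 2.10%. Lymphocyte genes stood out in control male 3 and high-fat male 1. The sample numbers in the titles fall into 3 ranges, each with libraries of all 4 groups, and the range was a term of the model.

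A group of 3 high-fat female libraries stood apart from the other 12. A set of 34 genes was drawn whose median in CAST/EiJ is at most 1% of the median in C57BL/6J, while every C57BL/6J library is at 2 CPM or more. Many are pseudogenes or members of gene families, among them Gm12174, Naip2 and 2210418O10Rik, and the set includes the mitochondrial gene mt-Co2. The median level of the set, as a percentage of the C57BL/6J level, was 10.6 in high-fat female 1, 3.65 in high-fat female 2 and 4.07 in high-fat female 4. In the other 12 CAST/EiJ libraries it lay between 0.0183 and 0.358. These 3 libraries held 32, 23 and 26 of the 34 genes at 3% or more of the C57BL/6J level, and no other library held more than 2. Amy2a3 and Amy2a4, the members with the highest C57BL/6J medians (13700 and 4772 CPM by unscaled totals), did not follow this. They were at 0.306 and 0.172 CPM in high-fat female 1, 39.8 and 39.2 in high-fat female 2 and 0.423 and 1.54 in high-fat female 4. In control male 3 they were at 19.5 and 17.0. For mt-Co2, a subunit of cytochrome c oxidase, the high-fat females had 134.6, 32.0, 3.83 and 38.9 CPM, and the control females 5.90, 4.16, 8.05 and 5.44. The males had 2.65 to 4.48 CPM on control diet and 2.69 to 5.75 on high-fat diet, so only the high-fat females 1, 2 and 4 were raised. Whether RNA or reads of another strain entered these 3 libraries was not tested, and if they did, every value given for high-fat females 1, 2 and 4 would hold a share of them. Since all 3 libraries are in 1 group of sex and diet, the gene counts, the lists described by sex and the genes named for a difference in females are also given without them. High-fat female 3 is then the only female on that diet. Counts of genes under a threshold in that fit cannot show whether a difference held or was lost.

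**Figure D1:**
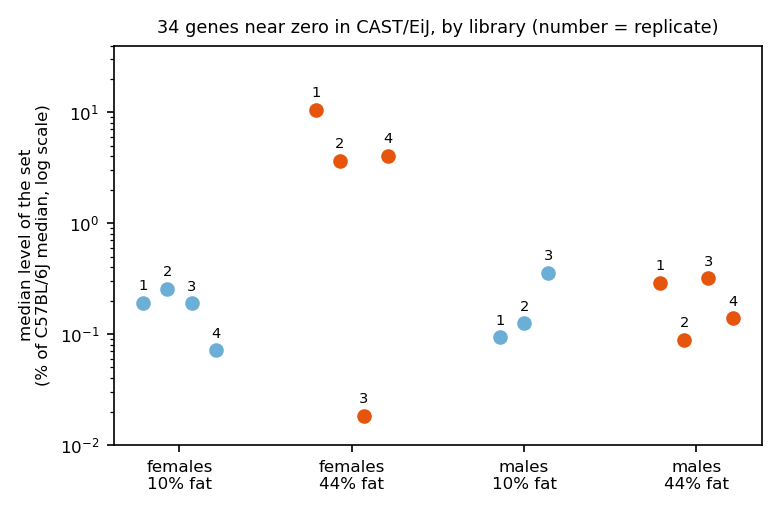
Median level of the 34 genes with low counts in CAST/EiJ, as a percentage of the C57BL/6J median (log scale), for each CAST/EiJ library. Libraries are grouped by sex and diet, with replicate numbers beside the points. High-fat females 1, 2 and 4 lie at 10.6, 3.65 and 4.07%, and all other libraries lie at or under 0.358%.

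The first question was whether the high-fat diet changed the islet transcriptome of this strain. In the mean over both sexes, no gene passed at an adjusted p of 0.05 with edgeR's quasi-likelihood test and Benjamini-Hochberg adjustment over 18442 genes, a share of 0%. At an unadjusted p under 0.05, 1275 genes (6.91%) were found, of which 641 (3.48%) were higher and 634 (3.44%) lower on high-fat diet. No gene passed in females or in males taken separately, where 1620 (8.78%) and 408 (2.21%) were under the unadjusted threshold. DESeq2, run on the same genes as an alternative, called 24 genes (0.13%) for the mean over sexes, 77 (0.418%) in females and none in males. Of those calls, 6 of the 24 and 11 of the 77 belong to the 34 genes with low counts in CAST/EiJ. Without high-fat female 3 the edgeR test called 7 genes for the mean and 12 in females, and 6 and 8 of these belong to that set.

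The fit was precise enough to bound the diet effect for most expressed genes. Among the 12490 genes with a mean of at least 1 log2 CPM, the 95% interval of the mean diet effect lay within a 2-fold change either way for 97.7%, and within 1.5-fold for 92.6%. The median standard error of these genes was 0.08 on the log2 scale. The median effect over all tested genes was 0.00 in the mean over sexes, 0.00 in females and -0.01 in males. Leaving out the 3 raised libraries leaves a lone high-fat female, so the counts of that fit, given next, cannot show whether differences held. With the 3 raised libraries left out, edgeR again called 0 genes for the mean over sexes, with 461 of 19390 (2.38%) under the unadjusted threshold and 15 called by DESeq2. In females alone it called 0, with 424 (2.19%) under the unadjusted threshold and 19 called by DESeq2.

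**Figure D2:**
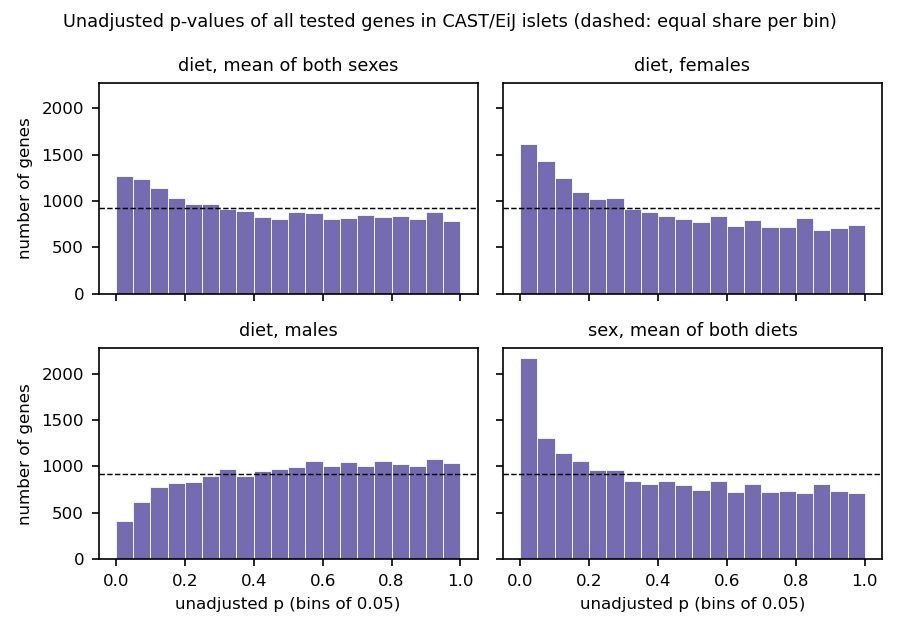
Number of genes by unadjusted p (bins of 0.05) for the diet effect in the mean over sexes, in females and in males, and for the sex difference, all in CAST/EiJ, with a dashed line at an equal share per bin. The lowest bin holds 6.91% of genes for the mean diet effect, 8.78% in females, 2.21% in males and 11.8% for sex.

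The genes with the smallest p for the mean over sexes differed by modest amounts. The 10 protein-coding genes highest on this ranking lay between 0.18 and 0.77 log2 units above control, and the 10 lowest between -1.003 and -0.23. All 20 share an adjusted p of 0.711 by edgeR, and DESeq2 called 9 of the 10 higher and 5 of the 10 lower ones. Each of the 20 kept its sign within all 3 ranges of sample numbers and without the 3 raised libraries. They were chosen for their small p and for the same sign in both sexes. These counts, and their agreement between the sexes, therefore describe them and test nothing.

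Among the higher genes, Nos1 encodes the neuronal nitric oxide synthase (chromosome 5, 117781032 to 117958840, GRCm38). Control females had 5.16, 11.1, 8.26 and 8.65 CPM and high-fat females 11.5, 13.8, 13.3 and 15.4, so the female groups did not overlap. Control males had 5.72, 4.67 and 11.7 CPM and high-fat males 10.8, 11.6, 13.5 and 11.5, with control male 3 inside the high-fat range. The mean difference was 0.75 ± 0.17 (SE, log2), or 1.68-fold, with a DESeq2 adjusted p of 0.0161 and an edgeR adjusted p of 0.711. It was 0.72 ± 0.25 without the 3 raised libraries. Tacr3, the receptor for neurokinin B (chromosome 3, 134829007 to 134934579), had 4.14 to 7.33 CPM in control females and 7.44 to 12.5 in high-fat females. In males it had 4.16, 3.02 and 3.55 CPM on control diet and 9.90, 6.17, 4.70 and 5.21 on high-fat diet. The groups were apart within each sex, with a mean difference of 0.77 ± 0.18, which was 1.01 ± 0.20 without the 3 raised libraries.

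Apob, the structural protein of lipoproteins that carry triglyceride and cholesterol (chromosome 12, 7977648 to 8016835), had a larger estimate in females than in males. Control females had 1.10, 1.35, 0.682 and 0.755 CPM and high-fat females 2.08, 2.07, 2.14 and 2.63, while males ran from 2.78 to 2.98 on control diet and from 2.67 to 4.28 on high-fat diet. The female difference was 1.17 ± 0.21 log2 units, or 2.25-fold, and the male difference 0.21 ± 0.23. No gene passed edgeR's adjusted test of the interaction of sex and diet. The female difference was 0.93 ± 0.33 without the 3 raised libraries. On control diet Apob was lower in every female than in every male, and the sex difference passed the test (-1.06, edgeR adjusted p = 0.01), which it did not with the 3 raised libraries left out (-1.16, adjusted p = 0.174). The other genes on the higher side were Gramd3 (0.34 ± 0.06, DESeq2 adjusted p = 0.000445), Gna13, a G protein alpha subunit (0.28 ± 0.06), Slc22a23, a solute carrier (0.36 ± 0.08), and Fras1, a basement membrane protein (0.38 ± 0.08). Ppp2r2c, a regulatory subunit of a protein phosphatase, Cdon, a hedgehog co-receptor, and Zbtb10, a zinc finger protein, differed by 0.24, 0.18 and 0.29.

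On the lower side the smallest p belonged to Ppp1r3c, a subunit that directs a protein phosphatase to glycogen (chromosome 19, 36731737 to 36736653). Control females had 17.1, 24.8, 19.9 and 16.6 CPM and high-fat females 10.7, 17.1, 16.4 and 14.03. Control males had 22.7, 32.3 and 23.7 CPM and high-fat males 18.2, 20.8, 28.3 and 21.1. Within each sex 1 high-fat library reached into the control range, and the difference was -0.42 ± 0.07, or 0.749 of control, with a DESeq2 adjusted p of 0.00131. Rab3b, a GTPase of secretory vesicles, was the tightest: 44.9 to 57.2 CPM in control females against 36.1 to 42.6 in high-fat females, and 43.1 to 44.1 in control males against 38.6 to 40.2 in high-fat males. All 7 control libraries lay above all 8 high-fat libraries, by -0.25 ± 0.06 log2 units. Such full separation of the 15 libraries was seen for 3 of 18442 genes (0.0163%), and separation within each sex for 21 (0.114%).

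Dab1, an adaptor of reelin signalling (chromosome 4, 103619359 to 104744844), had the largest difference of the 20. Control females had 2.62, 2.23, 6.46 and 3.88 CPM and high-fat females 2.14, 1.68, 0.829 and 1.98. Control males had 4.25, 6.37 and 4.70 CPM and high-fat males 2.77, 3.02, 2.53 and 2.10. The groups were apart in both sexes, and the difference was -1.003 ± 0.25, or 0.499 of control, with a DESeq2 adjusted p of 0.0324. It was -1.52 without the 3 raised libraries. Relt, a receptor of the tumour necrosis factor receptor family (-0.47 ± 0.11), Capg, an actin capping protein (-0.44 ± 0.11), Cldn9, a tight junction claudin (-0.46), and Sorcs2, a sortilin-related receptor (-0.23 ± 0.05), were also on this side. The remaining members were Rgcc (-0.38), 1810010H24Rik (-0.39) and Hn1l (-0.23).

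**Figure D3:**
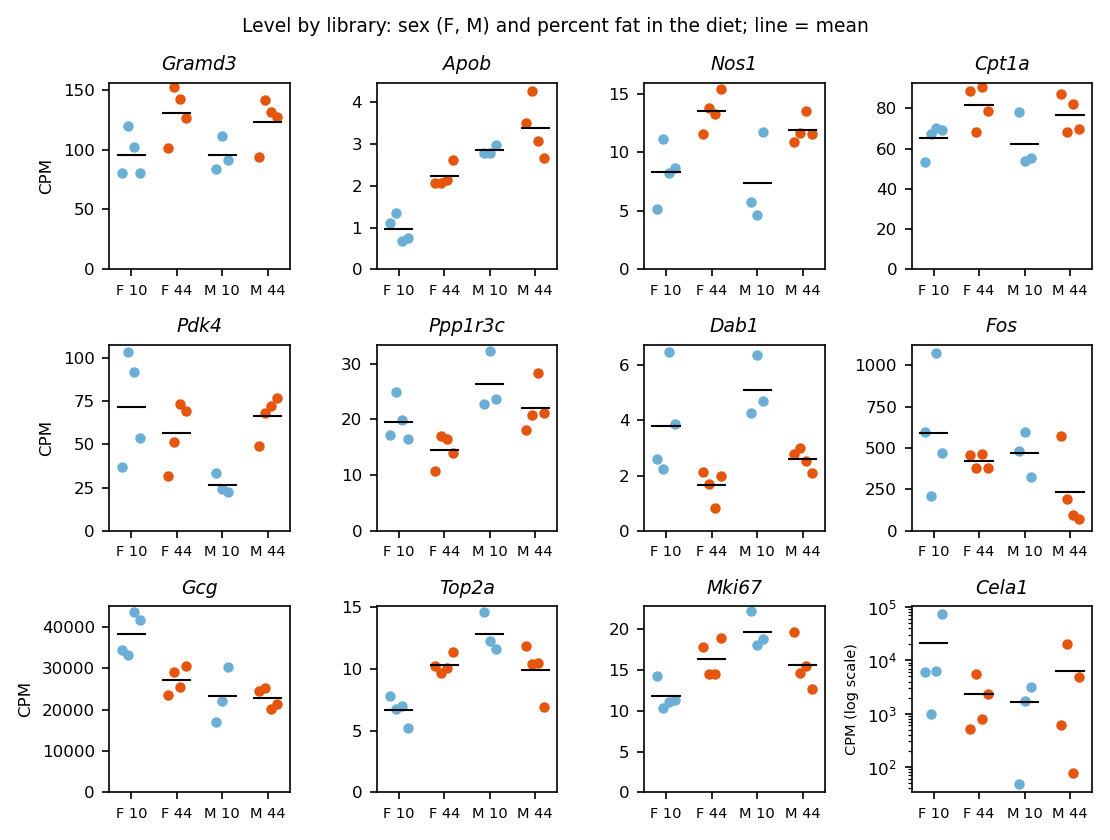
CPM of 12 genes in each CAST/EiJ library, by sex (F, M) and percent fat in the diet, with a line at each group's mean (log scale for Cela1 only). Nos1 and Dab1 are shifted in both sexes, and Apob more in females than in males. Mki67 is higher in all high-fat females than in all control females while the male order is the opposite in mean.

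Genes of fatty acid uptake and oxidation, which PPAR receptors control, had a median effect near that of all genes, 0.04 against 0.00 in the mean over sexes. Of 27 members tested, none passed and 2 were higher at an unadjusted p under 0.05 (background 3.48%). In males 4 of the 27 were higher at that threshold (background 0.965%), with 19 positive and a median of 0.03. In females 1 was higher and 1 lower, with 18 negative and a median of -0.09, which was -0.01 without the 3 raised libraries. Among the higher members was Cpt1a, which admits long-chain fatty acids to mitochondria. Cpt1a (chromosome 19, 3323301 to 3385732) had 53.4, 67.4, 70.5 and 69.2 CPM in control females and 88.5, 68.3, 90.8 and 78.7 in high-fat females. In males it had 78.5, 53.7 and 55.6 CPM on control diet and 87.3, 68.4, 82.4 and 69.9 on high-fat diet. The difference was 0.32 in both sexes, 0.32 ± 0.10 in the mean, or 1.25-fold, with high-fat female 2 and control male 1 falling within the range of the other diet. The female difference was 0.54 ± 0.24 with the 3 raised libraries left out.

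Pdk4, the kinase that spares glucose by shutting off pyruvate dehydrogenase, differed between the sexes in its values. Control males had 33.4, 24.1 and 22.8 CPM and high-fat males 48.9, 67.8, 72.2 and 76.7, so the male groups were apart. Control females had 36.7, 103.6, 91.8 and 53.5 CPM and high-fat females 31.9, 51.3, 73.4 and 69.3, with a broad overlap. The male difference was 1.17 ± 0.31, or 2.25-fold, and the female difference -0.35 ± 0.28. The interaction was -1.52 ± 0.41 with an unadjusted p of 0.0028. With the 3 raised libraries left out, the female difference was -0.09 ± 0.47 and the interaction -1.29 ± 0.57. No gene passed the adjusted test of the interaction with edgeR, and 759 (4.12%) were under the unadjusted threshold. Fatty acid synthesis (18 genes) had a median of 0.02 and cholesterol synthesis (24 genes) one of -0.02. Srebf1, the regulator of lipogenic genes, was at -0.18 (95% interval -0.40 to 0.04).

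Beta cell identity genes differed little between the diets. Of the 29 tested, none passed, 1 was lower and none higher at the unadjusted threshold (background 3.44% and 3.48%), and the median was 0.00. All 29 had a 95% interval within a 2-fold change. Ins2 was at -0.12 (95% interval -0.51 to 0.27), Ins1 at -0.12 (-0.47 to 0.23) and Iapp, islet amyloid polypeptide, at -0.02 (-0.29 to 0.24). Slc2a2, the glucose transporter of beta cells, was at 0.04 (-0.19 to 0.27) and Ucn3, a marker of mature beta cells, at 0.06 (-0.11 to 0.22). The 1 lower member was Mafa, which activates insulin transcription in the mature cells, at -0.29 ± 0.11 with high-fat males at 57.9 to 94.2 CPM and control males at 68.1 to 119.9. Genes of hormone granules and exocytosis (20 tested, median -0.04), genes silenced in mature beta cells (20, -0.02) and markers of dedifferentiation (11, 0.00) had no member past the adjusted test. The interaction median of the silenced genes was -0.36, with 17 of 20 negative and 1 lower at the unadjusted threshold (background 2.08%). It was -0.27 without the 3 raised libraries and -0.26 with the acinar score of each library in the model.

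The genes of the other endocrine cells lay lower on high-fat diet, with the lower median in females. All 14 tested members had a negative estimate in the mean over sexes, with a median of -0.22 against 0.00 over all genes. None passed, and 4 were lower at the unadjusted threshold (background 3.44%). In females the median was -0.38 with 7 of 14 under that threshold (background 4.71%), and in males -0.10. The interaction of sex and diet had a median of -0.32, with 10 of 14 negative. Of these, 3 were lower at the unadjusted threshold (background 2.08%) and none passed the adjusted test. That female count was 3 without control female 3 or high-fat female 1 or 4, 4 without control female 1 and 10 without control female 4. Gcg had 34410, 33060, 43650 and 41690 CPM in control females and 23560, 29170, 25490 and 30550 in high-fat females. Every high-fat female lay below every control female, by -0.43 ± 0.22 log2 units, with control female 3 the highest library.

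In males Gcg had 17110, 22050 and 30360 CPM on control diet and 24450, 25210, 20100 and 21260 on high-fat diet, a difference of 0.02 ± 0.23. Sst, which encodes somatostatin, was at -0.28 ± 0.13 and Ppy, which encodes pancreatic polypeptide, at -0.64 ± 0.41 in the mean. Without the 3 raised libraries the list's median was -0.27 over sexes and -0.42 in females, with no member under the unadjusted threshold in either, and Gcg in females was at -0.45 ± 0.45. With the acinar score of each library in the model the female median was -0.35, with 9 of 14 under the threshold. Within the third range of sample numbers alone the list's median was -0.44. That range holds control females 3 and 4, the highest libraries for this list (0.881 and 0.398 relative to each gene's mean, log2). The medians of the first and second ranges stayed within the spread between libraries. In these bulk samples, fewer cells of a type and less RNA per cell cannot be told apart.

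Subunits of the ribosome and of the respiratory chain were also lower in high-fat females. All 26 ribosomal protein genes tested had a negative mean estimate, with a median of -0.19 and 8 under the unadjusted threshold (background 3.44%), and none passed. In females the median was -0.40 with 24 of 26 under the threshold (background 4.71%), and in males 0.01. Rpl19 ran from 314.8 to 425.0 CPM in control females and from 241.5 to 288.5 in high-fat females, and Rps14 was likewise apart in females. Their female differences without the 3 raised libraries were -0.248 ± 0.192 and -0.365 ± 0.217. Control female 4, the library with 35.8% acinar counts, was the highest for the list, and without it the female median was -0.26 with 19 of 26 under the threshold. The lowest count, 10 of 26 with a median of -0.31, came without high-fat female 4. With the acinar score in the model the female median was -0.34 with 21 of 26. The 3 raised libraries left out, the median was -0.14 over sexes and -0.28 in females, with all 26 negative and none under the threshold in either. Rpl19 shares most of its sequence words with other annotated transcripts, so reads may have been divided among copies. Its pseudogene Rpl19-ps11 is in the set of low-count genes. It was at 24.2, 13.4 and 8.45 CPM in high-fat females 1, 2 and 4 and at 0.470 in high-fat female 3.

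The 34 nuclear genes of oxidative phosphorylation had a median of -0.12 with all 34 negative, 1 under the unadjusted threshold and none past the test. In females the median was -0.22 with 12 under the threshold, in males -0.01, and in females without control female 4 it was -0.14 with 3. The count in females was also 3 without high-fat female 4, 5 without high-fat female 1 or control female 3, 7 without high-fat female 2, and 28 without control female 2. With the 3 raised libraries left out the median was -0.08 over sexes, with 30 of 34 negative, and -0.16 in females, with 31 negative, and no member was under the threshold in either. Cox4i1, a subunit of cytochrome c oxidase, had 120.6 to 171.8 CPM in control females and 104.5 to 120.4 in high-fat females. The groups were apart by a small gap, and the female difference without the 3 raised libraries was -0.24 ± 0.215. The 13 genes of the mitochondrial genome had a median of 0.11 and glycolysis (12 genes) one of -0.05. With the acinar score in the model, the female median of the 34 nuclear genes was -0.19 with 6 under the threshold.

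Immediate early genes, which are transcribed within minutes of a stimulus or of tissue handling, were lower on high-fat diet in most males. All 13 members had a negative mean estimate, with a median of -0.71 against 0.00 over all genes. Of these, 7 were under the unadjusted threshold (background 3.44%) and none passed the adjusted test. The male median was -1.05 with 9 of 13 under the threshold (background 1.25%), and the female median was -0.33 with none. Fos, a subunit of the AP-1 transcription factor, had 479.9, 597.8 and 327.4 CPM in control males and 573.2, 192.9, 97.2 and 71.1 in high-fat males. High-fat males 2, 3 and 4 were low and high-fat male 1 was as high as the controls. In females Fos had 597.8, 208.9, 1075 and 472.2 CPM on control diet and 460.2, 379.4, 466.7 and 377.3 on high-fat diet, so the control females spanned the whole high-fat range.

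Dusp1, a phosphatase that ends MAP kinase signals, was likewise low in high-fat males 2, 3 and 4 and not in high-fat male 1, with 89.9, 128.0 and 67.3 CPM in control males and 108.5, 34.9, 26.2 and 31.3 in high-fat males. Junb, another AP-1 subunit, had 97.9, 118.0 and 81.2 CPM in control males and 99.3, 47.9, 31.6 and 36.3 in high-fat males. The mean differences were -0.82 ± 0.42 for Fos, -0.80 ± 0.32 for Dusp1 and -0.62 ± 0.23 for Junb. High-fat male 1 belongs to the first range of sample numbers, where the list's median difference was -0.07, against -0.47 in the second range and -1.16 in the third. With the 3 raised libraries left out the median was -0.53 over sexes and 0.09 in females, with none under the threshold in either. Leaving out control male 2 brought the median over sexes to -0.39. The male median, -1.05 with all libraries, ran from -1.60 without high-fat male 1 to -0.60 without control male 2. The male count of 9 under the threshold fell to 0 without high-fat male 4, to 1 without high-fat male 3 or control male 2 and to 5 without high-fat female 4. The female median ran from -0.82 without control female 2 to 0.09 without control female 3.

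Several of these genes are known targets of CREB, which binds the cyclic AMP response element TGACGTCA or its first bases, TGACG. The upstream windows of the 3 genes above are shown because all 3 were lower in high-fat males 2, 3 and 4 than in every other male: 250 bases ending just before the start of transcription, from RefSeq on build GRCm38.p6, read 5′ to 3′ on the gene's strand. Capitals mark TGACG or TGACGTCA, or their reverse complements, searched on both strands, where every TGACGTCA also holds TGACG.
Fos, plus strand, chr12:85473640-85473889: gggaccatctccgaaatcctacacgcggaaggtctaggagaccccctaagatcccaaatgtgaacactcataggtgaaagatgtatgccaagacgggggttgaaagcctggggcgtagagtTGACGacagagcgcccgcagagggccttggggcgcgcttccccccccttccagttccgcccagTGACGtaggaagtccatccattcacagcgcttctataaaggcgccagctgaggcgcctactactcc
Junb, minus strand, chr8:84978749-84978998: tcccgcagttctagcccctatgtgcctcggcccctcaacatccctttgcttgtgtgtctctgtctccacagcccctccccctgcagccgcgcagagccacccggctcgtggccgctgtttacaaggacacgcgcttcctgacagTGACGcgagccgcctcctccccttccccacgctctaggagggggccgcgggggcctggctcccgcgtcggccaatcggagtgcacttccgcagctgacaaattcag
Dusp1, minus strand, chr17:26508473-26508722: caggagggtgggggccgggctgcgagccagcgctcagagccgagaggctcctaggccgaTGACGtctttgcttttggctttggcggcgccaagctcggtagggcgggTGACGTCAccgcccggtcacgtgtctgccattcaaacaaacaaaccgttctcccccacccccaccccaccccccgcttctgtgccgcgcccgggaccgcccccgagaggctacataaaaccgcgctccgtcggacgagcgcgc
Of the 13 listed genes, 9 matched the RefSeq table by symbol. TGACG was found in a window of 8 of the 9, and in that of 5347 (19.8%) of all 27025 genes with windows of that length. TGACGTCA was found in Dusp1 and in 1.77% of all genes. A match is a description of letters and not of a bound site.

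Cell cycle genes lay in opposite directions in the sexes. Of 31 tested, 29 had a positive estimate in females with a median of 0.29, and 27 a negative one in males with a median of -0.25. At the unadjusted threshold 7 were higher in females (background 4.08%) and 4 lower in males (background 1.25%). The female count ran from 4 without high-fat female 4 to 12 without control female 3. The male count was 0 without high-fat male 4, with a median of -0.15, and 1 without control male 2. In the test of the interaction itself the median was 0.55, with 13 of 31 higher in females at the unadjusted threshold (background 2.03%) and none past edgeR's adjusted test, and that count was 8 without high-fat female 4. DESeq2 called 4 genes for the interaction (0.0217%). They were Mki67 and Top2a of this list, Ikzf4, a zinc finger factor, and Naip2, which is 1 of the 34 genes with low counts in CAST/EiJ.

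Macrophage markers, like the cell cycle list, had medians of opposite sign in the sexes. Of 17 tested, 14 were positive in females (median 0.17, none higher and 1 lower at the unadjusted threshold) and 15 negative in males (-0.27, with 2 lower). Their interaction had a median of 0.54, with 16 positive and 2 higher at the threshold, and that of the 7 MHC class II genes one of 0.20, with all 7 positive and none under the threshold. The macrophage markers together held 0.00688 to 0.0159% of the counts in control females and 0.0123 to 0.0185% in high-fat females. Their share was 0.012 to 0.0444% in control males and 0.00737 to 0.0147% in high-fat males, highest in control male 3. These are shares of all counts, acinar ones included. The lowest control female was control female 4 (35.8% acinar) and the lowest high-fat male was high-fat male 2 (17.6% acinar). After scaling, the list's median log2 level relative to each gene's mean over the libraries was 0.086 in control female 4 and -0.627 in high-fat male 2. Without control male 3 the interaction medians were 0.06 for macrophage markers, -0.32 for MHC class II and 0.53 for the cell cycle list. Without the 3 raised libraries they were 0.678 for macrophage markers and 0.435 for MHC class II, and the female macrophage median was 0.272.

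Mki67, the Ki-67 antigen present in dividing cells (chromosome 7, 135689788 to 135716379), had 14.3, 10.4, 11.1 and 11.3 CPM in control females and 17.8, 14.5, 14.5 and 18.9 in high-fat females. All high-fat females lay above all control females. Control males had 22.3, 18.1 and 18.8 CPM and high-fat males 19.7, 14.7, 15.5 and 12.6, with high-fat male 1 inside the control range. The difference was 0.51 ± 0.10 in females, -0.30 ± 0.11 in males and 0.81 ± 0.15 between them, with a DESeq2 adjusted p of 0.0118. Top2a, the topoisomerase of replicating cells, had 5.18 to 7.80 CPM in control females and 9.69 to 11.4 in high-fat females, and 11.6 to 14.6 in control males and 6.88 to 11.9 in high-fat males. Its interaction was 0.99 ± 0.20, with a DESeq2 adjusted p of 0.0209.

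Without the 3 raised libraries, high-fat female 3 is the only female on that diet. The interaction was then 0.71 ± 0.18 for Mki67 and 0.91 ± 0.25 for Top2a, and the female differences were 0.39 ± 0.15 and 0.51 ± 0.22. That lone library is assumed to vary like the other groups. The list's median was then 0.21 in females, -0.27 in males and 0.50 for the interaction, with 4 of 31 under the unadjusted threshold in each. With all libraries and the acinar score in the model it was 0.30, -0.22 and 0.49. On control diet every female lay below every male for Mki67 and Top2a, and on high-fat diet the sexes overlapped. Ikzf4 had 6.85 to 7.16 CPM in control females and 13.3, 13.2, 8.74 and 11.5 in high-fat females, with 6.50 to 8.99 in all males, and an interaction of 0.94 ± 0.19, which was 0.50 ± 0.23 with the 3 raised libraries left out.

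**Figure D4:**
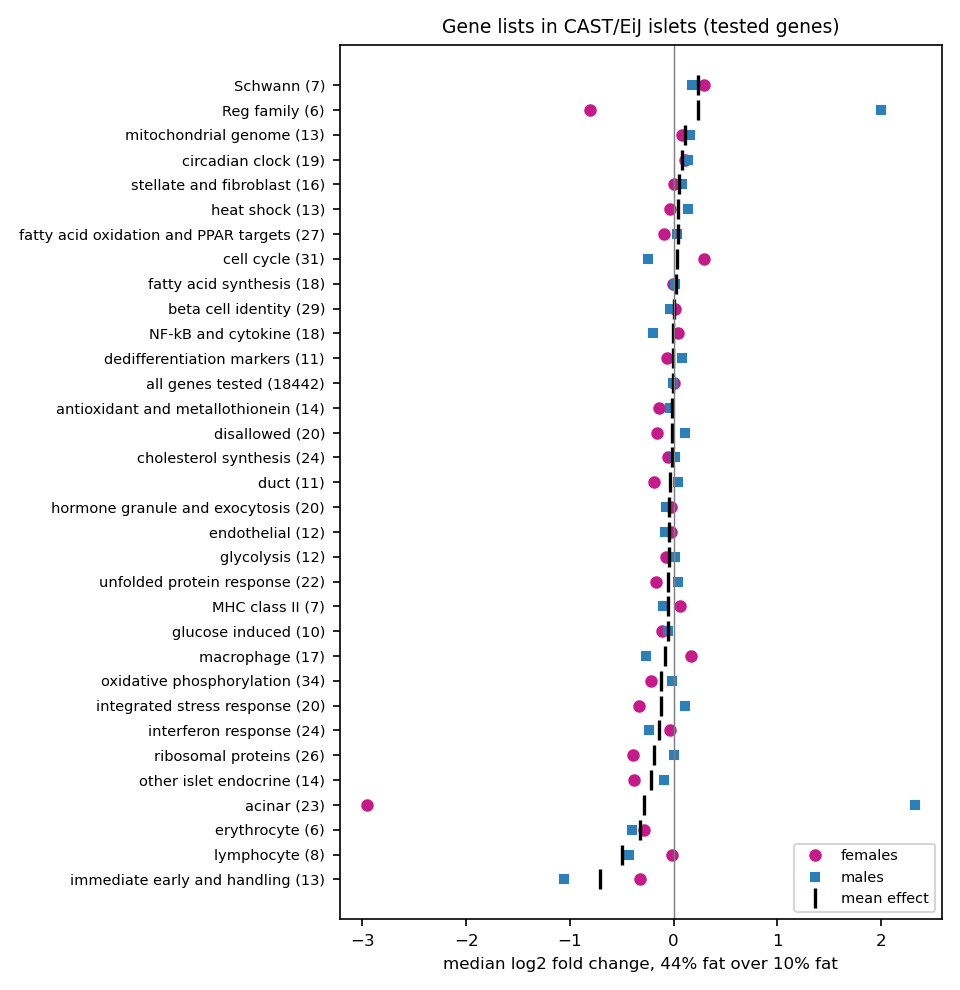
Median log2 fold change (44% over 10% fat) of each gene list in CAST/EiJ females, males and the mean over sexes, with the number of tested genes in brackets. Most medians lie near 0; acinar genes lie at -2.96 in females and 2.32 in males, and immediate early genes at -0.33 and -1.05.

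Markers of other cell types varied between single libraries more than between diets. Acinar genes had a median of -2.96 in females and 2.32 in males, and 22 of 23 were lower at the unadjusted threshold for the interaction (background 2.08%), with none past the adjusted test. With the 3 raised libraries left out the female median was -4.93 and no member was under the threshold for the interaction. Cela1, an elastase of acinar cells, had 6030, 972, 6302 and 72440 CPM in control females and 510.8, 5589, 793.5 and 2308 in high-fat females. It had 47.9, 1715 and 3124 CPM in control males and 599.9, 19860, 78.3 and 4769 in high-fat males. Control female 4 and high-fat male 2 were the highest, and without high-fat male 2 the male median was 0.35 and no member was under the threshold for the interaction.

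Lymphocyte genes (8 tested, median -0.50) rested on 2 libraries. Ighm, the heavy chain of IgM, had 89.5 CPM in control male 3 and 24.7 in high-fat male 1, against 0.624 to 4.10 in the other 13 libraries. Macrophage genes (17 tested) had a median of -0.08 in the mean over sexes, with the values by sex given above. C1qa, a complement component made by macrophages, was at -0.29 ± 0.09, or 0.818 of control. The complement genes C1qb and C1qc were at 0.992 and 1.02 of control, and the macrophage marker Itgax was at 1.25. MHC class II (7 tested, -0.06), endothelial (12, -0.04), stellate and fibroblast (16, 0.05), duct (11, -0.04) and Schwann cell genes (7, 0.24) had no member past the adjusted test. Of 8 adipocyte genes only Lpl passed the filter on low counts. Lpl encodes lipoprotein lipase and had 141.0 to 237.0 CPM in control females and 87.9 to 134.1 in high-fat females, a difference of -0.62 ± 0.15, and -0.20 ± 0.15 in males. The female difference was -0.88 ± 0.27 without the 3 raised libraries.

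Stress programmes showed small medians in the mean over sexes. The unfolded protein response had a median of -0.06 over 22 genes with none under the unadjusted threshold, and Hspa5, the main chaperone of the endoplasmic reticulum, was at -0.14 (95% interval -0.46 to 0.18). The integrated stress response (20 genes) had a median of -0.12, with 1 member higher and 1 lower at the unadjusted threshold. Its regulator Atf4 was at 0.18 ± 0.07, or 1.13-fold, and its member Ppp1r15a was at 0.716 of control. This list was at -0.34 in females and 0.11 in males, with an interaction median of -0.38 and 19 of 20 negative. The unfolded protein response was at -0.17 and 0.04, with an interaction median of -0.24 and 21 of 22 negative. Without the 3 raised libraries the female medians were -0.35 and -0.22 and the interaction medians -0.43 and -0.25. With the acinar score in the model the interaction medians were -0.15 and -0.08. Heat shock genes (13) had a median of 0.04, interferon response genes (24) one of -0.14 and antioxidant genes (14) one of -0.01. In the last list Nqo1, a quinone reductase (-0.29 ± 0.09), and Gpx1, a glutathione peroxidase (-0.24 ± 0.08), were lower at the unadjusted threshold. Txnip, which rises with glucose in beta cells, was at 0.05 (-0.16 to 0.27). Rbm3, an RNA-binding protein induced by cold, was at -0.68 ± 0.19.

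Females and males differed in more genes than the diets did. With the same 15 libraries and the same model, 57 genes (0.309%) passed edgeR's adjusted test between females and males. Of these, 30 (0.163%) were higher in females and 27 (0.146%) higher in males. Beside Xist, Kdm5d and Ddx3y they held genes of the circadian clock and its output. Dbp (1.77, adjusted p = 0.00429), Tef (0.91, 0.0177) and the clock gene Per3 (1.20, 0.0338) were higher in females, and Nfil3 (-0.81, 0.019), which opposes Dbp and Tef on the same DNA element, was lower. With the 3 raised libraries left out, Dbp and Tef passed (adjusted p = 0.0034 and 0.0253) and Per3 did not (0.222). Dbp ran from 15.7 to 36.2 CPM in the 8 females and from 3.54 to 9.32 in the 7 males, with no overlap. The count was 15 without the 3 raised libraries and ran from 25 without control male 2 to 112 without control female 2. It lay between 28 and 37 without high-fat female 1 or 2, control male 1, control female 3, or high-fat male 3 or 4.

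The diet effect in CAST/EiJ was last compared with that in the other strains, in 1 fit of all 45 libraries with 20306 genes, where 16 libraries are C57BL/6J and 14 NZO/HlLtJ. Each strain has its own control libraries. Between CAST/EiJ and C57BL/6J 3 genes (0.0148%) passed edgeR's adjusted test: 2210418O10Rik, 9930111J21Rik2 and Gm12174. All 3 belong to the set raised in the 3 high-fat female libraries, and without those libraries none passed the test between the strains, with 855 of 21242 genes (4.03%) under the unadjusted threshold. High-fat males also held counts of these genes. 2210418O10Rik was at 0 in the 3 control males and at 0.0835, 0.0152, 0.0405 and 0.304 CPM in the high-fat males, and its mean diet difference in CAST/EiJ was 3.89 ± 1.07 without the 3 libraries. 9930111J21Rik2 was at 0 in the control males and in high-fat males 2 and 4, and at 0.227 and 0.0709 CPM in high-fat males 1 and 3. These levels rest on few counts. The count of passing genes was 21 without high-fat female 3, and 0 or 1 without any control female, any control male or high-fat male 1. Cell cycle genes had a median effect of 0.02 in CAST/EiJ and 0.58 in C57BL/6J. Of 31 genes 17 were lower in the difference at the unadjusted threshold (background 1.92%), with a median of -0.56 and none past the adjusted test.

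Between CAST/EiJ and NZO/HlLtJ, a strain that becomes obese and diabetic, 5363 genes (26.4%) passed, 2797 (13.8%) in the higher and 2566 (12.6%) in the lower direction. In CAST/EiJ the cell cycle list was at 0.02 and in NZO/HlLtJ at 1.42, and 27 of 31 genes passed as lower in CAST/EiJ. Beta cell identity genes were at 0.02 and -0.59, and 17 of 29 passed as higher. Macrophage genes were at -0.08 and 1.89, with 17 of 18 lower, and MHC class II genes at -0.08 and 1.88, with 7 of 7 lower. Genes silenced in mature beta cells were at -0.04 and 1.00, with 17 of 20 lower, and interferon response genes at -0.11 and 1.22, with 20 of 24 lower. Pfkfb3, which drives glycolysis, differed by -1.64 between the strains' diet effects, and the complement genes C1qb and C1qc by -1.93 and -1.97. The count was 3827 without the 3 raised libraries.

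**Figure D5:**
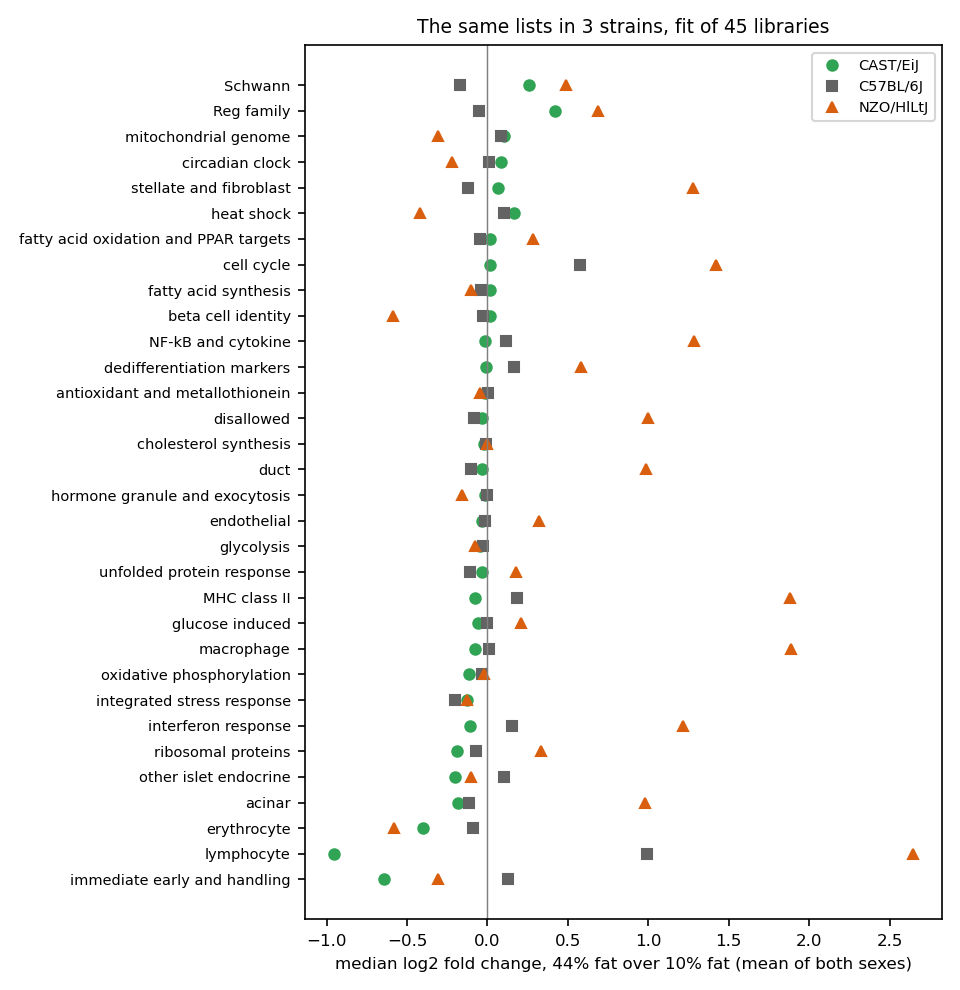
Median log2 fold change (44% over 10% fat, mean of both sexes) of the same gene lists in CAST/EiJ, C57BL/6J and NZO/HlLtJ, from the fit of 45 libraries. In CAST/EiJ the cell cycle, macrophage and MHC class II lists lie at 0.02, -0.08 and -0.08, against 1.42, 1.89 and 1.88 in NZO/HlLtJ.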

How the data were processed

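Islet polyA libraries were prepared with the KAPA mRNA HyperPrep kit and sequenced as 150 bp read pairs to a target of 100 M pairs, per the labels' protocols. The authors deposited 1 table of expected counts per gene, in which 80.6% of values lay within 1e-06 of a whole number. Per the submitters' processing notes the build was GRCm38 and DESeq2 was used, and no source used here gives the aligner, counter or strand setting. Of 22904 deposited genes 22763 matched GENCODE M21.

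Expected counts were rounded and tested with edgeR 4.0.16 in R 4.3.3 (quasi-likelihood, TMM scaling, minimum count 10), with 4 groups of sex and diet and the number range as terms, and Benjamini-Hochberg adjustment at 0.05. CPM used TMM-scaled totals, and all fold changes are high-fat over control. Strains were compared in a fit of all 45 libraries in 12 groups. A number range is a block of sample numbers in the titles, and what it stands for is not given. The alternatives were RLE factors, DESeq2 1.42.0, limma 3.58.1 voom with sample weights, other filters, no number range, an acinar score as covariate, an additive fit and leaving out each library. The fit without the 3 raised libraries was added after seeing the data. The edgeR fit of the CAST/EiJ libraries was tried on simulated counts, for the mean diet effect only, and the other fits were not. The most alike replicate pair differed by 63.7 times its sampling noise (chi-square per degree of freedom).

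The named genes include those with the smallest p at a mean log2 CPM of at least 1. There were 10 on each side for the mean over sexes, all with the same sign in both sexes, and fewer for the other contrasts. Also named were 2 members of each list, and a set of hormone, metabolic and control genes. The members, the 34 lists and the naming rule were chosen with earlier results of these data known. Of 137 named genes 18 have 50% or more of their 31-base words in common with other transcripts and are uncertain, among them mt-Co2, 2210418O10Rik, 9930111J21Rik2, Gm12174, Rpl19, Prss1, Hspa1a and Hspa1b. Genes with low counts in CAST/EiJ were found from the levels, as described with the results. Some named genes are not reported here.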

Additional observations from a re-analysis of the deposited data

Results flagged for a closer look

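In groups of 4 libraries, a single library far from the other 3 was found in 8 cases. Chance gives this pattern in about 1 in 20 groups examined, and several library measures and many named genes were examined. The number of groups examined is not given, so 8 cases are not shown to exceed what chance gives. Control female 4 had 35.8% of its counts in acinar genes, and its Cela1 stood at 72440 CPM. Dbp stood at 36.2 CPM in high-fat female 3 and Apob at 2.63 CPM in high-fat female 4. The remaining cases are Y-linked genes near 0 in females. Ddx3y was at 0.0126 CPM in control female 2 and 0.0325 in high-fat female 1. Kdm5d was at 0.0126 in control female 2 and 0.0098 in high-fat female 4. In each of these the other 3 libraries of the group were at 0, where any count is flagged and that rate does not hold.

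The diet effect differed between strains by a test of the difference for 3 genes against C57BL/6J and 5363 against NZO/HlLtJ. Against C57BL/6J the named genes were 2210418O10Rik (4.15, edgeR adjusted p = 0.0129) and 9930111J21Rik2 (5.74, 0.0214), both of the set raised in 3 high-fat female libraries. Against NZO/HlLtJ the differences were 1.77 for St8sia1, a ganglioside synthase (edgeR adjusted p = 2.07e-06), 3.23 for Cib3, a calcium-binding protein (2.07e-06), 1.52 for Jph3, a junctophilin (4.18e-06), and 2.21 for Mreg, melanoregulin (5.34e-06). On the lower side they were -1.64 for Pfkfb3 (1.04e-05), -1.97 for C1qc (1.06e-05), -1.93 for C1qb (1.36e-05) and -1.43 for Scarf2, a scavenger receptor (1.36e-05).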

How the results depend on the processing

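No paired analysis was possible because the labels give no replicate numbers shared between groups. Of 64 counts of genes under alternatives that keep all libraries or leave out the 3 raised ones, 51 stayed within 1.5 times the main count. DESeq2 called 24 genes for the mean diet effect, 77 in females, 4 for the interaction of sex and diet, 510 for sex and 20 for CAST/EiJ against C57BL/6J. The fit of all 45 libraries called 9, 46, 2 and 151 for the first 4 of these. Voom called 355 for sex and 0 against C57BL/6J, and without the 3 raised libraries sex gave 15 and C57BL/6J 0. Leaving out each library in turn gave 0 to 7 genes for the mean, 0 to 12 in females, 0 in males, 0 to 7 for the interaction, 25 to 112 for sex, 0 to 21 against C57BL/6J and 4291 to 6631 against NZO/HlLtJ. The cause of these moves was not tested. Of the calls of the fit of 45, 9 of 9 for the mean and 24 of 46 in females belong to the 34 genes with low counts in CAST/EiJ.

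Of 231 list medians, 210 stayed within the spread between libraries, and the 21 that moved all come from 1 number range alone. In range 1 they were -0.16 for hormone granules, 0.28 for genes silenced in beta cells, -0.20 for glucose-induced genes, -0.032 for fatty acid oxidation, -0.069 for immediate early genes, 0.19 for interferon, 0.29 for NF-kB, 0.79 for MHC class II, 0.50 for macrophages, 2.01 for lymphocytes, -0.13 for adipocytes and 0.47 for erythrocytes. In range 2 they were 0.13 for fatty acid synthesis and -0.39 for interferon. In range 3 they were -0.44 for other endocrine cells, -0.42 for NF-kB, -0.61 for MHC class II, -0.44 for macrophages, -3.71 for lymphocytes, 0.13 for endothelium and -0.41 for ribosomal proteins.

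Among 1379 values of named genes, 16 changed sign. Without the 3 raised libraries these were mt-Co2 (-0.052), H2-DMa (0.151), Ighm (0.051), Reg3a (-0.761), Gfap (-0.062), Ddx3y (-0.91), Iapp (0.011), Rpl19-ps11 (-0.07), Rpl17-ps8 (-0.233) and, against C57BL/6J, Rpl9-ps6 (-1.039). With voom they were H2-DMa (0.032), Reg3a (-0.347) and Xist (0.021). Without the number range they were Prss1 (0.011) and Iapp (0.013), and in the additive fit Ddx3y (-0.153). Leaving out 1 library changed the sign 19 times in 2637 values. The ranges were -0.174 to 0.08 for H2-DMa, -1.721 to 0.329 for Ighm, -1.202 to 0.081 for Sycn, -1.322 to 0.647 for Prss1 and -1.076 to 0.07 for Reg1. They were -1.055 to 0.143 for Cela1, -0.011 to 0.113 for Slc2a2, -0.022 to 0.134 for Txnip, -0.925 to 1.285 for Ddx3y, -0.798 to 0.791 for Kdm5d and -0.219 to 0.102 for Xist. None of the genes with a range given here passed for the mean over sexes under any setting run. Low counts limit the lymphocyte genes and, in females, the Y-linked genes.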

Other observations

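Cyp26b1, which degrades retinoic acid, had 3.79, 3.18 and 1.45 CPM in control males and 26.7, 43.7, 14.9 and 13.7 in high-fat males, so the male groups did not overlap. In females it had 1.40, 14.04, 39.6 and 30.0 CPM on control diet and 15.1, 19.6, 25.6 and 15.5 on high-fat diet. The male difference was 3.06 ± 0.82 log2 units and did not pass the adjusted test. Slc40a1, the iron exporter ferroportin, had 15.7 to 21.1 CPM in control females and 27.1 to 50.3 in high-fat females, a difference of 0.81 ± 0.16, and in males the difference was 0.08 ± 0.17. Its sex difference passed edgeR's test at 0.61 (adjusted p = 0.047). With high-fat females 1, 2 and 4 left out, the female difference was 0.49 ± 0.23 and the sex difference 0.44, which did not pass (adjusted p = 0.499).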
